A study of Mus musculus with 4 samples.

Results

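The neuregulin and epidermal growth factor (EGF) receptor family was described here in single-nucleus RNA-Seq data from mouse liver. The 9 members were the receptors Egfr, Erbb2, Erbb3 and Erbb4 and the ligands Nrg1, Nrg4, Hbegf, Areg and Btc, and all 9 were found among the 54464 genes of the count matrix. They were chosen by name, with earlier results of the same data known. Nrg1 was taken up because its genotype difference in hepatocytes was called unlike that in endothelial cells in an earlier fit, so its genotype values are given below as a description without a test.

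The 4 receptors are receptor tyrosine kinases that work as dimers. EGF-like ligands such as Areg, Hbegf and Btc bind EGFR, neuregulins bind ERBB3 and ERBB4, ERBB2 has no known ligand of its own, and ERBB3 has little kinase activity and signals through its partner. The ligands are made as membrane proteins, and most are released by ADAM proteases. In liver, EGFR is abundant on hepatocytes and takes part in regeneration, and Nrg4 is known as a neuregulin made by fat tissue that acts on hepatocytes.

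Nuclei came from 3 mice with a hepatocyte-specific knockout of Nampt (HNKO) and 3 WT littermates. All were C57BL6/BomTac. The HNKO mice carried the floxed Nampt allele on both chromosomes (Nampt fl/fl) together with Cre recombinase (Alb-Cre) under the promoter of albumin, a gene active in hepatocytes, and WT littermates had the floxed allele without Cre. Per the study's methods, the mice were females of 8 to 12 weeks that ate a purified control diet for 6 weeks, and NAMPT makes the NAD+ precursor nicotinamide mononucleotide from nicotinamide. Whether liver cells other than hepatocytes kept a working Nampt gene was not tested. The methods place the mice in a cohort in which nicotinamide riboside was also given, and which of these 6 mice received it is not given in the sources used here.

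The nuclei of the 6 mice were pooled, sequenced together, and assigned back to a mouse by a hashtag antibody. Of 4250 nuclei sorted per mouse, the deposited matrix held 5193 in all after the authors' filters, with 629 to 778 nuclei per WT mouse and 950 to 1063 per HNKO mouse. Hepatocyte nuclei had a median of 3572 to 4162 unique molecular identifiers (UMIs, counted RNA molecules) in WT mice and of 4800 to 5786 in HNKO mice. The assignment of HNKO mouse 3 was the weakest, since 35.9% of its nuclei had more than 50% of their hashtag counts from their own hashtag, against 84.8 to 99.2% in the other mice. The authors' cell type names were checked against marker lists, and all markers were highest in the type they stand for except Ikzf1, which was slightly higher in Kupffer than in CD45+ nuclei. Nampt itself was at 91.6, 108 and 103 CPM (UMIs per 1000000) in hepatocytes of WT mice 1, 2 and 3 and at 91.7, 147 and 71.1 CPM in HNKO mice 1, 2 and 3. These are counts per gene, scaled by the TMM method, and they do not show whether the floxed part was removed.

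Hepatocytes made up 4410 of the nuclei and held 90.2% of all UMIs, and most members had a similar or larger share of their counts there. Hepatocytes held 78103 of the 80345 Egfr UMIs (97.2%), 47198 of the 49090 Erbb4 UMIs (96.1%), 2208 of the 2276 Erbb3 UMIs (97.0%) and 9885 of the 10158 Nrg4 UMIs (97.3%). Btc, with 331 of 375 UMIs (88.3%), was near the share of all UMIs, and Hbegf, with 69 of 90 (76.7%), and Erbb2, with 1 of 14, were below it. For Nrg1, 3233 of the 4694 UMIs (68.9%) came from hepatocytes and most of the rest from cholangiocytes and endothelial cells. Hbegf, Erbb2 and Areg were close to the limit of these data. They had 90, 14 and 9 UMIs in all nuclei together.

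To set cell types side by side, counts were summed per mouse and type and divided by all UMIs of that sum, which gives plain CPM. Types were compared only in sums of at least 10 nuclei. Since the clusters were made from the same nuclei and genes, differences between types are described without a test. In HNKO mice, where every type had enough nuclei, Egfr averaged 2427 CPM ± 1675 (SD, n = 3) in hepatocytes and 1106 ± 636 in CD45+ cells. Egfr was at 628 ± 276 CPM in endothelial cells, 595 ± 342 in stellate cells, 525 ± 209 in cholangiocytes and 135 ± 63.2 in Kupffer cells. Within this order the ranges of neighbouring types overlapped, except that cholangiocytes (296 to 707 CPM) lay above Kupffer cells (63.1 to 181 CPM). Hepatocytes had more Egfr than any other type in each of the 6 mice, with the other types at 1.57 to 83.8% of the hepatocyte level of the same mouse.

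**Figure D1:**
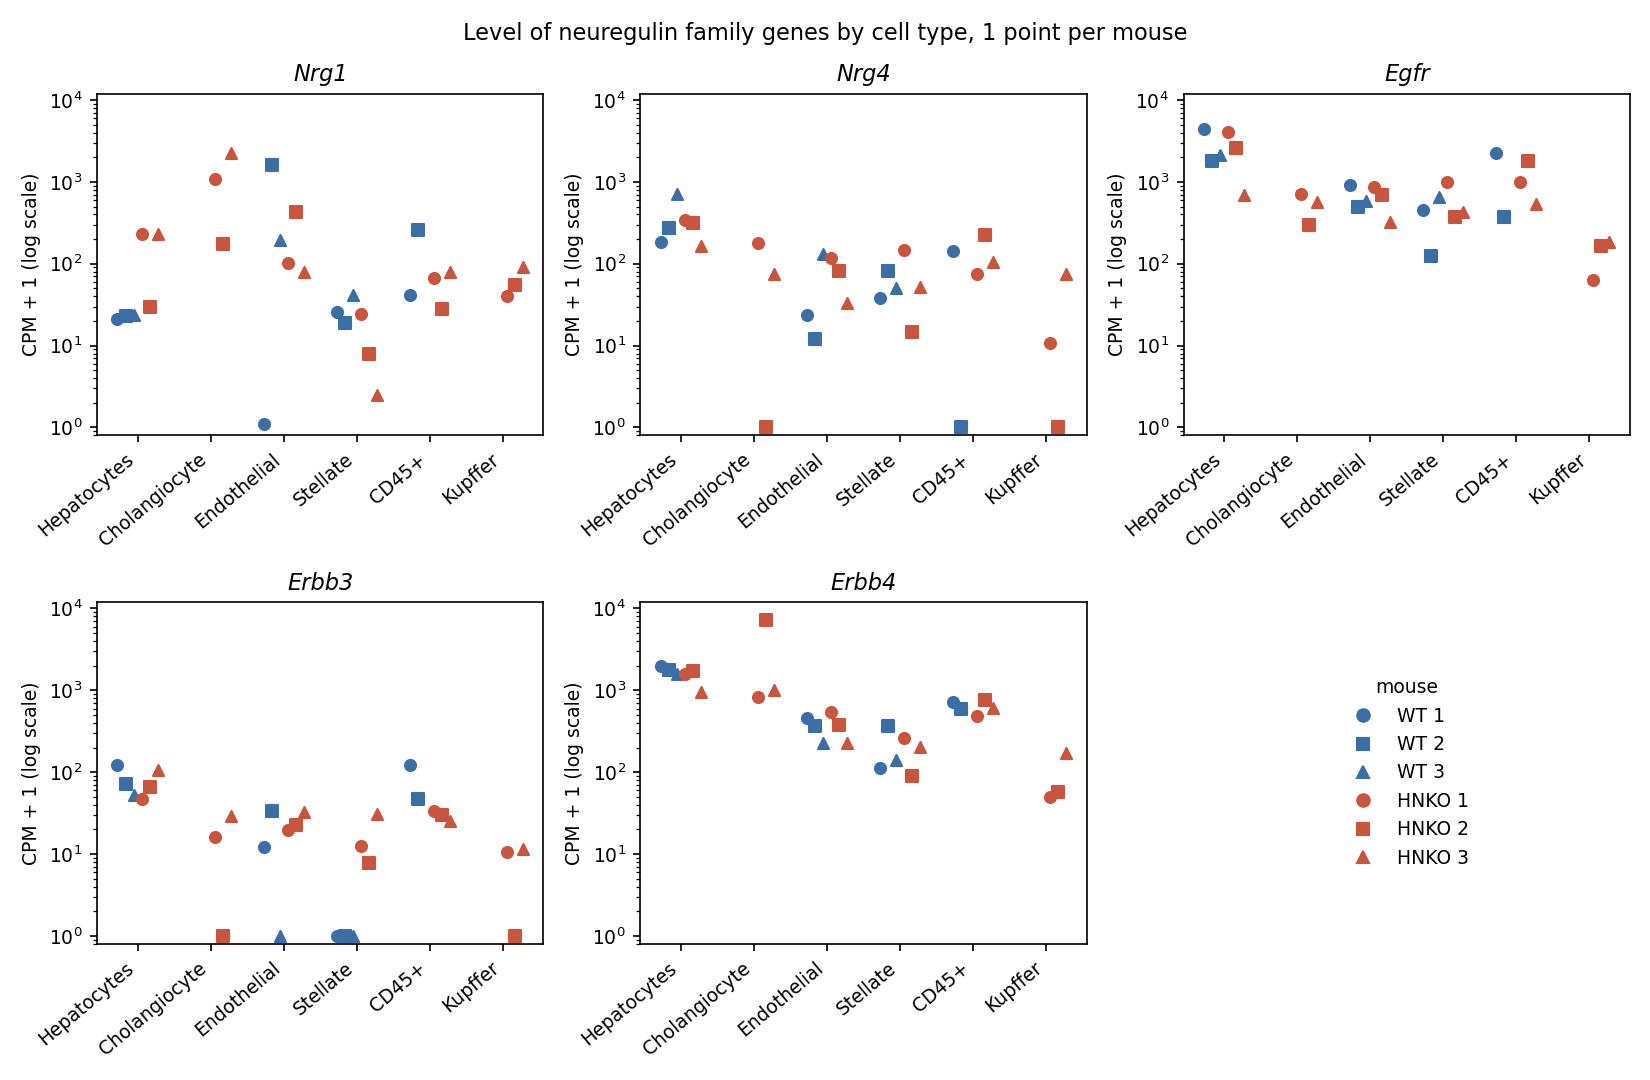
Plain CPM plus 1, on a log scale, of 5 family members in 6 liver cell types, with 1 point for each mouse that had at least 10 nuclei of the type; blue points are WT mice, red points are HNKO mice, and no WT mouse had enough cholangiocyte or Kupffer nuclei. Egfr and Nrg4 are highest in hepatocytes of each mouse, Nrg1 reaches its highest value (2279 CPM) in cholangiocytes of HNKO mouse 3, and points at 1 have no UMI.

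UMIs of hepatocyte markers were counted in all other types, and their level is needed to read these values. Whether they came from free RNA or from mixed nuclei was not tested. The sum of 6 hepatocyte markers (Alb, Apob, Ttr, Cps1, Cyp2e1 and Serpina1c) reached 15.5 to 38.8% of the hepatocyte level in endothelial sums, 4.52 to 31.4% in stellate sums and 7.72 to 27.8% in Kupffer sums. It reached 29.1 to 49.2% in CD45+ sums and 7.58 to 17.0% in cholangiocyte sums. Kupffer Egfr, at 1.57 to 26.5% of the hepatocyte level, lay below this marker sum in each of 3 mice, and so did Kupffer Erbb4. Endothelial Egfr lay above the marker sum in 2 of 6 mice and endothelial Erbb4 in 2 of 6. These values lay near the range of the marker sum or below it. Whether endothelial and Kupffer cells have Egfr or Erbb4 RNA of their own was not tested. Stellate Egfr lay above the marker sum in 5 of 6 mice, at 6.79 to 62.7% of the hepatocyte level, although single markers reached up to 82.2%.

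In HNKO mice, cholangiocytes, which line the bile ducts, had the highest mean level of Nrg1 and of Erbb4, the latter through 1 mouse. Erbb4 was at 839, 7200 and 1021 CPM in cholangiocytes of HNKO mice 1, 2 and 3, against 1597, 1718 and 955 CPM in their hepatocytes. The high value of HNKO mouse 2 rests on 292 UMIs in 10 nuclei. In HNKO mouse 1 cholangiocytes had less Erbb4 than hepatocytes, and in HNKO mouse 3 the levels were close. The authors split cholangiocytes into a pair of clusters, and Erbb4 was at 4207 CPM in Cholangiocyte 2 (34 nuclei) and at 633 CPM in Cholangiocyte 1 (76 nuclei). HNKO mouse 3 gave 38.2% of the nuclei of the former and 59.2% of the latter. Nrg1 had the reverse order, with 2026 CPM in Cholangiocyte 1 and 369 CPM in Cholangiocyte 2. In the same order of clusters Egfr was at 640.5 and 474 CPM. Of the 76 nuclei of Cholangiocyte 1, HNKO mice 1 and 3 gave 30 and 45. Nearly all of the 10 nuclei of HNKO mouse 2 were therefore in Cholangiocyte 2, and its cholangiocyte levels describe mainly that cluster. WT mice had only 2 cholangiocyte nuclei, so no genotype comparison was possible in this type. These nuclei, from WT mice 1 and 2, had no Nrg1 UMI and held 24 and 50 Erbb4 UMIs.

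Per mouse, cholangiocyte Nrg1 was at 1084, 173 and 2279 CPM in HNKO mice 1, 2 and 3, from 282, 7 and 809 UMIs. In HNKO mice 1 and 3 it was spread over most nuclei, with a nonzero estimated count in 33 of 40 and 50 of 58. The level in hepatocytes was lower in each of these mice, at 21.4, 16.5 and 10.1% of the cholangiocyte level. In order of mean level in HNKO mice, cholangiocytes (1178 CPM) were followed by endothelial cells (204), hepatocytes (164), Kupffer cells (60.7), CD45+ cells (56.9) and stellate cells (10.5). Ranges of neighbours overlapped throughout this order except between CD45+ cells (27.0 to 77.9 CPM) and stellate cells (1.48 to 23.1 CPM).

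Endothelial Nrg1 was carried by few nuclei. The sums held 0, 146 and 21 UMIs in WT mice 1, 2 and 3, whereas those of HNKO mice 1, 2 and 3 held 32, 79 and 12. In WT mouse 2 a single nucleus held 76 of the 146 UMIs, and in HNKO mouse 2 a single nucleus held 46 of the 79. Between 1 and 10 endothelial nuclei per mouse had a nonzero estimated Nrg1 count, which may be a fraction of a UMI. In WT mouse 1 this was 1 nucleus, and the sum rounds to 0 UMIs. The endothelial level therefore describes a small number of nuclei, and with a range from 0.111 to 1605 CPM in WT mice it overlapped completely with that in HNKO mice.

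Nrg4 was highest in hepatocytes in each mouse, at 184, 269 and 705 CPM in WT mice 1, 2 and 3 and at 343, 310 and 165 CPM in HNKO mice 1, 2 and 3. Erbb3 was at 120, 70.9 and 51.3 CPM in WT hepatocytes and at 45.8, 65.3 and 106 CPM in HNKO hepatocytes. In the other types Erbb3 rested on 0 to 10 UMIs per sum, and all 3 WT stellate sums held none. These zeros allow up to 3 UMIs per sum, which is 37.1, 52.9 and 30.0 CPM for stellate cells of WT mice 1, 2 and 3. Hepatocyte Erbb3 of the same mice lay above these limits. Erbb2 was counted 6 times in endothelial cells, 4 times in stellate cells, 3 times in cholangiocytes and 1 time in hepatocytes. In hepatocytes 0 UMIs allow up to 0.452 to 0.851 CPM per mouse, counting error only. Erbb2 messenger RNA was thus close to or below the detection limit in hepatocytes. The same holds for Areg, with 9 UMIs, all in hepatocytes.

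The share of nuclei with a nonzero estimated count, which may be a fraction of a UMI, gave a similar order. Because deeper nuclei show more genes, the share was also computed after thinning each nucleus to 1000 UMIs. Egfr was found in 80.5 to 97.4% of hepatocyte nuclei per mouse, or in 40.5 to 89.7% after thinning. In Kupffer nuclei, which had a median of 3088 UMIs against 4484 in hepatocytes, these shares were 24.1 to 50% and 7.63 to 18.4%. Erbb4 was found in 82.3 to 93.8% of hepatocyte nuclei and in 48.8 to 74.4% after thinning, against 4.90 to 8.22% of Kupffer nuclei after thinning. Erbb3 was found in 25.3 to 41.2% of hepatocyte nuclei and in 4.63 to 11.2% after thinning, and in 0 to 0.689% of Kupffer nuclei after thinning. Hepatocytes of each mouse thus stood above the Kupffer shares for all 3 receptors, and those shares come from HNKO mice only. Other types reached the hepatocyte range in places, as Erbb3 did in CD45+ nuclei of WT mouse 1 (6.85% after thinning).

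For Nrg1 the share differed between mice as well as between types. It was 11.6, 9.96 and 10.8% of hepatocyte nuclei in WT mice 1, 2 and 3 and at 34.6, 13.8 and 34.4% in HNKO mice 1, 2 and 3. After thinning these shares were 1.80, 1.83 and 2.03% in WT mice and at 12.5, 2.52 and 13.3% in HNKO mice. Cholangiocyte nuclei had higher shares, at 82.5 and 86.2% in HNKO mice 1 and 3, or 48.7 and 61.2% after thinning. Of the 10 such nuclei of HNKO mouse 2, 4 had a nonzero count. In stellate nuclei, which had a median of 3378 UMIs, 0 to 3.48% had Nrg1 after thinning. The thinned share in WT hepatocytes was therefore within the range of stellate nuclei, as was that in HNKO mouse 2, and HNKO mice 1 and 3 lay above that range.

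The question of the study was how loss of Nampt changes the cells of the liver. To compare genotypes, hepatocyte counts were summed per mouse, scaled by TMM and tested in edgeR across 11810 genes, with Benjamini-Hochberg adjustment over all of them. Nrg1 is given first, as a description, because it was taken up for this difference. Its TMM-scaled level was 21.8, 22.7 and 23.9 CPM in WT mice 1, 2 and 3, and 252, 28.3 and 181 CPM in HNKO mice 1, 2 and 3. The counts behind these levels were 71, 87 and 100 UMIs in WT and 1535, 171 and 1269 UMIs in HNKO mice. HNKO mice 1 and 3 stood at 11.1 and 7.93 times the WT mean, whereas HNKO mouse 2 stood at 1.24 times. All 3 HNKO values lay above the WT values, which was also so for 6.42% of all genes tested. The log2 fold change was 2.75 with a standard error (SE) of 0.67. Leaving out any mouse gave 2.20 to 3.24. Since Nrg1 was chosen for this difference, these values describe it and are no independent support for it.

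**Figure D2:**
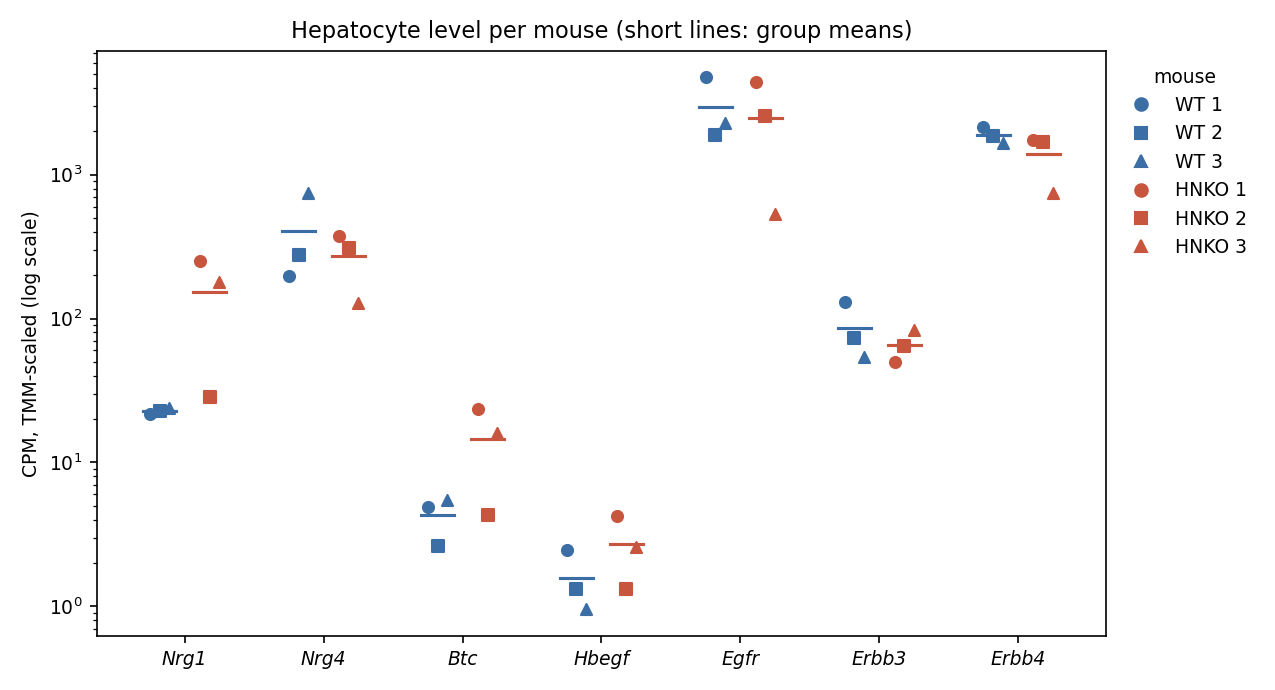
TMM-scaled CPM, on a log scale, of the 7 members with enough counts in hepatocytes; points are mice, blue WT and red HNKO, and short lines are group means. Nrg1 and Btc are several times higher in HNKO mice 1 and 3 and near WT in HNKO mouse 2, and Egfr and Erbb4 are lowest in HNKO mouse 3.

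None of the other 6 members with enough counts passed the test in hepatocytes. The background was the same, as 0 of the 11810 genes (0%) passed an adjusted p of 0.05, while 698 had an unadjusted p under 0.05 and DESeq2 called 21 genes, none of them among these 6 members. Their edgeR adjusted p-values ran from 0.82 to 0.954, and 1 of the 6 had an unadjusted p under 0.05. Of these 6 members, 0 had groups without overlap in either direction, beside 6.42% of all genes with HNKO higher and 5.17% with HNKO lower. The median log2 fold change was -0.32 over the 6 members and 0.02 over all genes. Areg and Erbb2 were too low to be tested.

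Of the EGFR ligands, Btc (betacellulin) was highest in HNKO mice 1 and 3, as was Nrg1. Its TMM-scaled level was 4.90, 2.61 and 5.49 CPM in WT mice 1, 2 and 3 and at 23.5, 4.30 and 16.1 CPM in HNKO mice 1, 2 and 3. HNKO mice 1 and 3 lay above all WT mice, and HNKO mouse 2 lay among them. The log2 fold change was 1.75 (SE 0.60, edgeR adjusted p = 0.82). Leaving out 1 mouse at a time gave edgeR adjusted p-values from 0.081, without HNKO mouse 2, to 0.977. In the fit without HNKO mouse 2, 32 of all genes passed, and Btc was not among them. DESeq2 with all mice gave Btc an adjusted p of 0.352. The counts were small, at 16, 10 and 23 UMIs in WT and 143, 26 and 113 UMIs in HNKO mice, and 12 of the 23 UMIs of WT mouse 3 came from 1 nucleus. Hbegf, which binds EGFR and ERBB4, was at 2.45, 1.31 and 0.955 CPM in WT mice and at 4.27, 1.32 and 2.56 CPM in HNKO mice. Its groups overlapped, with a log2 fold change of 0.82 (SE 0.55, adjusted p = 0.827), and its highest sum held 26 UMIs.

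Nrg4 was at 199, 278 and 748 TMM-scaled CPM in WT hepatocytes and at 374, 307 and 129 CPM in HNKO hepatocytes. The spread among WT mice, at 3.77 times between the lowest and the highest, exceeded the difference between the groups. Accordingly, the log2 fold change of -0.60 (SE 0.55, adjusted p = 0.851) changed sign to 0.18 without WT mouse 3.

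None of the receptors separated the genotypes, and single mice stood apart in either group. Egfr was at 4751, 1879 and 2283 TMM-scaled CPM in WT mice and at 4385, 2549 and 534 CPM in HNKO mice. HNKO mouse 3 was the lowest, at 0.18 times the WT mean, whereas HNKO mouse 1 lay near the highest WT mouse. Hepatocytes of HNKO mouse 3 were also low in the sum of the 6 hepatocyte markers, at 9520 plain CPM against 21274 to 27821 CPM in the other 5 mice, and the part of this in the low values of HNKO mouse 3 was not tested. The log2 fold change of -0.26 (SE 0.70, adjusted p = 0.954) became 0.23 without HNKO mouse 3 and 0.26 without WT mouse 1. Erbb4, a neuregulin receptor, was at 2155, 1845 and 1668 CPM in WT mice and at 1741, 1700 and 748 CPM in HNKO mice. It was again lowest in HNKO mouse 3, and its log2 fold change was -0.44 (SE 0.36, adjusted p = 0.842). Erbb3, its kinase-poor relative, had another order. It was at 130, 73.2 and 54.4 CPM in WT mice and at 49.95, 64.6 and 82.9 CPM in HNKO mice, so that HNKO mouse 3 was the highest of its group. Its log2 fold change was -0.38 (SE 0.34, adjusted p = 0.851), and it was 0.04 without WT mouse 1.

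Hepatocytes of HNKO mice 1 and 3 also held more cholangiocyte marker RNA, and these are the mice with high Nrg1. The summed level of 8 cholangiocyte markers in hepatocytes was 315, 346 and 305 plain CPM in WT mice 1, 2 and 3 and at 635, 300.4 and 517 CPM in HNKO mice 1, 2 and 3. Between 5 and 7 of the 8 markers had a UMI in each mouse, and Krt19 was at 0 in all 6 mice. Pkhd1, which hepatocytes also contain, made up most of this sum, and the other 7 markers together were at 11.5 to 23.4 CPM in WT mice and at 46.9, 14.9 and 61.2 CPM in HNKO mice. Relative to the cholangiocytes of the same mouse, the hepatocyte marker sum was at 7.09, 1.71 and 5.02% in HNKO mice 1, 2 and 3, and Nrg1 was at 21.4, 16.5 and 10.1%. In hepatocyte nuclei without any UMI of the 8 markers, Nrg1 was at 154 and 157 CPM in HNKO mice 1 and 3, from 94 and 122 UMIs. HNKO mouse 2, at 30.6 CPM from 34 UMIs, lay within the 19.3 to 35.9 CPM of WT mice, which rest on 17 to 27 UMIs. Nuclei without a marker UMI were 17.7 and 25.0% of the hepatocytes in HNKO mice 1 and 3. Nuclei with few UMIs more often lack a marker UMI, so this choice also selects for low depth. The summed level of 6 endothelial markers in hepatocytes was 30.4 to 37.9 CPM in WT mice and 34.7, 33.1 and 43.4 CPM in HNKO mice 1, 2 and 3. That of 6 stellate markers was 40.8, 47.5 and 89.1 CPM in WT mice 1, 2 and 3 and 194, 31.0 and 122 CPM in HNKO mice 1, 2 and 3, so it too was highest in the mice with high Nrg1. Reln made up most of this stellate sum, with 2712 UMIs over all hepatocytes against 11 to 69 for each other stellate marker. The stellate sum thus largely follows 1 gene. Stellate cells themselves had 1.48 to 23.1 CPM of Nrg1 in HNKO mice. Limiting hepatocytes to nuclei with more than 50% of hashtag counts from their own mouse gave 181 plain CPM of Nrg1 in HNKO mouse 3, in place of 231. The part of cholangiocyte or stellate RNA in the hepatocyte Nrg1 level was not tested.

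Within hepatocytes, Nrg1 depended on the mouse and on the cluster. The authors named 13 hepatocyte clusters, several by zone of the liver lobule (Central for nuclei near the central vein, Periportal for nuclei near the portal tract) and others by genotype. In HNKO mouse 1, Nrg1 was at 238 CPM in the 658 nuclei of the cluster named HNKO 1, and at 11.3 CPM in the 93 nuclei of the cluster named Central HNKO 1, which rest on 1309 and 10 UMIs. In HNKO mouse 3, the cluster named HNKO 2 had 352 CPM in 479 nuclei, the cluster named HNKO 3 had 43.6 CPM in 285 nuclei, and Central HNKO 2 had 9.25 CPM in 78 nuclei. The Central nuclei of these mice were thus at the level of WT nuclei, which lay at 6.27 to 33.2 CPM over the cluster and mouse combinations with at least 20 nuclei.

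**Figure D3:**
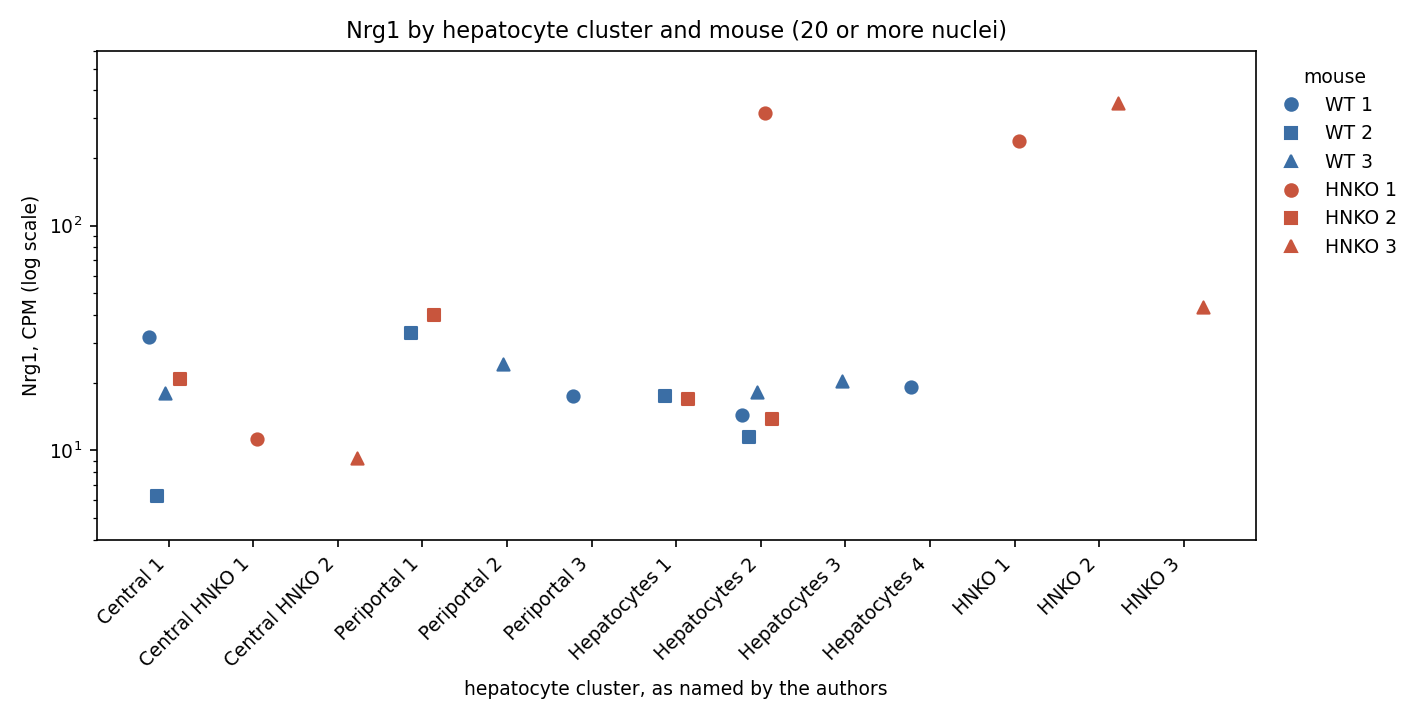
Nrg1 in plain CPM, on a log scale, in each hepatocyte cluster named by the authors, with 1 point for each mouse with at least 20 nuclei in the cluster; blue is WT and red is HNKO. Values above 200 CPM occur in HNKO mouse 1 (Hepatocytes 2, HNKO 1) and HNKO mouse 3 (HNKO 2), and Central clusters of both mice stay near 10 CPM.

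The cluster Hepatocytes 2 was shared by 5 mice and allowed a comparison within 1 cluster. Nrg1 was at 14.4, 11.5 and 18.2 CPM in WT mice 1, 2 and 3, at 318 CPM in HNKO mouse 1 and at 13.8 CPM in HNKO mouse 2, with 37 to 97 nuclei per mouse. HNKO mouse 2 shared further clusters with WT mouse 2, and both had close values. Nrg1 was at 17.0 CPM in HNKO mouse 2 and 17.5 CPM in WT mouse 2 in Hepatocytes 1, and at 40.2 and 33.2 CPM in Periportal 1. In Hepatocytes 1 the same mice had 196 and 195 CPM of Nrg4. Only 77 of 812 hepatocyte nuclei in HNKO mouse 1 and 69 of 847 in HNKO mouse 3 held 5 or more Nrg1 UMIs, against 1 nucleus in each WT mouse and 4 in HNKO mouse 2. The 10% of hepatocyte nuclei with the most Nrg1 held 77.4 and 75.1% of its UMIs in HNKO mice 1 and 3. This was less than the 91.6% of HNKO mouse 2 and the 98.2 to 100% of WT mice. In WT mice about 1 in 10 nuclei had a nonzero Nrg1 count.

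Nrg4 and Erbb4 were lower in Central clusters than in the other hepatocytes of every mouse. HNKO mice 1 and 3 had only 4 and 1 nuclei in clusters named Periportal. Their other hepatocytes were thus mainly in clusters without a zone name. Slc1a2, a glutamate transporter gene that the paper names as a central marker, was at 3272 to 4498 CPM in Central clusters. It was at 19.9 to 86.8 CPM in the other hepatocytes of the same mice. Sds, the paper's periportal marker, was 3.81 times higher in the other hepatocytes than in Central clusters in HNKO mouse 3. In the remaining mice it was 7.69 to 44.5 times higher. The clusters were formed from these counts, so the markers describe the zone names and do not test them. Nrg4 was at 30.8, 28.2 and 62.6 CPM in the Central clusters of WT mice 1, 2 and 3 and at 38.2, 36.8 and 62.4 CPM in those of HNKO mice 1, 2 and 3. In the other hepatocytes it was at 196, 279 and 749 CPM in WT mice and at 392, 330.0 and 174 CPM in HNKO mice. The other hepatocytes thus had 2.78 to 11.96 times the Central level, in 6 of 6 mice. Central Nrg4 rests on 4 to 35 UMIs per mouse. In the 4 mice with at least 20 nuclei in clusters named Periportal, Nrg4 was 9.87, 14.9 and 15.5 times higher there than in Central clusters of WT mice 1, 2 and 3 and 12.5 times higher in HNKO mouse 2. Among the 6 mice Nrg4 ranged from 28.2 to 62.6 CPM in Central clusters and from 174 to 749 CPM in the other hepatocytes.

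**Figure D4:**
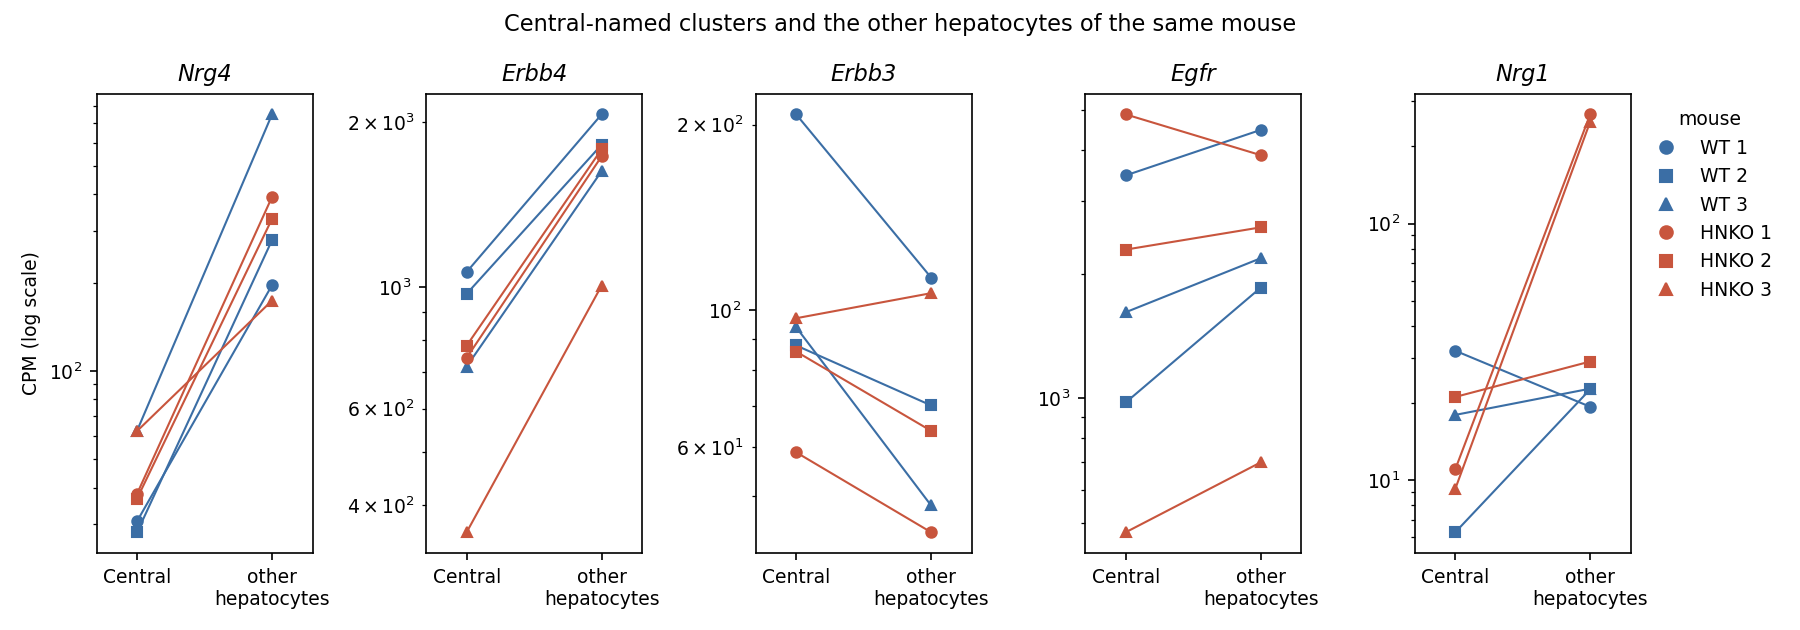
Plain CPM, on log scales that differ between panels, of 5 members in the clusters named Central and in all other hepatocytes of the same mouse; lines join values of 1 mouse, blue WT and red HNKO. Nrg4 and Erbb4 are lower in Central clusters in 6 of 6 mice, and Nrg1 has a large step only in HNKO mice 1 and 3.

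Erbb4 was at 1066, 973 and 716 CPM in Central clusters of WT mice 1, 2 and 3 and at 743, 782 and 357 CPM in those of HNKO mice 1, 2 and 3. The other hepatocytes had 1.87 to 2.82 times as much, again in 6 of 6 mice. Erbb3 ran the other way in most mice. It was at 208, 87.7 and 93.9 CPM in Central clusters of WT mice and 113, 70.2 and 48.3 CPM in the other hepatocytes, and the Central level was higher in 5 of 6 mice, at 1.25 to 1.94 times the level of the other hepatocytes. In HNKO mouse 3 Erbb3 was at 97.1 CPM in Central and 107 CPM in the other hepatocytes. Egfr was lower in Central clusters in 5 of 6 mice, at 0.53 to 0.88 times the level of the other hepatocytes, whereas HNKO mouse 1 had 4876 CPM in Central and 3885 CPM in the other hepatocytes. The low Egfr of HNKO mouse 3 was found in its Central nuclei (474 CPM) and in its other hepatocytes (700.1 CPM) alike. As the zone clusters were formed from all genes, these contrasts are descriptions, and the 2 genotypes were not tested against each other by zone.

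In the other cell types the members had few counts. Over endothelial nuclei 4 members were tested among 2743 genes, over stellate nuclei 2 among 2266, and over CD45+ nuclei 3 among 2703, the last with 2 WT mice because WT mouse 3 had only 7 CD45+ nuclei. None of the members tested besides Nrg1 passed in any of these types, where 0% of all genes did. Without adjustment, 104, 158 and 224 genes had a p under 0.05, and the tested members other than Nrg1 were not among them. DESeq2 called 1, 1 and 4 genes, which did not include these members either. Groups without overlap, HNKO higher or lower, made up 4.85 and 5.07% of all genes in endothelial cells, 6 and 5.21% in stellate cells and 14.2 and 12.4% in CD45+ cells, and included no member. Endothelial Egfr had a log2 fold change of -0.07 (SE 0.34, adjusted p = 0.995) and stellate Egfr of 0.47 (SE 0.52, adjusted p = 0.91). Erbb4 was at 0.16 (SE 0.36) in endothelial cells, -0.10 (SE 0.49) in stellate cells and -0.10 (SE 0.37) in CD45+ cells. Endothelial Nrg1 is again only described. Its TMM-scaled level was 0, 1631 and 195 CPM in WT mice and at 102, 426 and 76.1 CPM in HNKO mice, and its log2 fold change of -1.60 turned to 0.93 when WT mouse 2 was left out.

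The rest of the pathway was followed through 67 genes in 5 lists, of which 55 had enough counts in hepatocytes. None passed the test in either direction, and 3 had an unadjusted p under 0.05, all higher in HNKO mice. Groups did not overlap for 5 genes with HNKO higher and 2 with HNKO lower, beside 6.42 and 5.17% of all genes, and the median log2 fold change of the 55 was -0.01. Among 3 other ligands with enough counts, Tgfa, which encodes the EGFR ligand TGF-alpha, was at 17.8, 29.8 and 27.2 TMM-scaled CPM in WT mice and at 46.5, 32.2 and 47.1 CPM in HNKO mice. Its groups did not overlap, with a log2 fold change of 0.75 (SE 0.25, adjusted p = 0.82), and HNKO mouse 2 was again nearest to WT. Among 5 genes of ligand shedding, Rhbdf2, a partner of the protease ADAM17, was at 11.95, 15.2 and 14.8 CPM in WT mice and at 33.0, 18.8 and 25.1 CPM in HNKO mice. Its log2 fold change was 0.87 (SE 0.25, adjusted p = 0.82). Adam10 and Adam17 themselves had overlapping groups.

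Downstream, 26 adaptors and kinases had enough counts, and 2 were higher and 2 lower in HNKO mice without overlap. The largest of these differences was that of Mapk3, which encodes a MAP kinase, with a log2 fold change of 0.77 (SE 0.32, adjusted p = 0.82). Of 14 inhibitors, Dusp4, a phosphatase of MAP kinases, had groups without overlap, at 2.15, 1.57 and 2.63 CPM in WT mice and at 3.94, 3.97 and 2.71 CPM in HNKO mice. None of 7 response genes, among them Fos, Egr1, Myc and Ccnd1, had groups without overlap. Errfi1, an inhibitor that binds EGFR, is named after its values were seen. It was at 5496, 4980 and 5319 CPM in WT mice and at 5297, 4733 and 1140 CPM in HNKO mice, so that HNKO mouse 3 was low in Errfi1 as in Egfr. In endothelial, stellate and CD45+ cells 24 genes of these lists were tested in each type, and 0 passed.

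The genes most like the members were sought over 29 sums of mouse and cell type, among 11565 genes, by the correlation of log2(CPM + 1). For Erbb4 these were Naaladl2 (r = 0.94), Crp (0.89) and Onecut2 (0.87), and for Erbb3 they were Gabbr2 (0.89), Gjb1 (0.88) and Cd1d1 (0.87). Egfr was most like Slc38a4 (0.87), Rapgef4 (0.86) and Fam214a (0.85). Nrg1 had weaker matches, namely Arl6ip5 (0.75), Ppl (0.67) and Eloc (0.65). Sums of 1 mouse share an animal, and all sums share the pooled libraries and hold hepatocyte marker RNA. These correlations therefore describe the samples and carry no p-value.

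Positions of the genes may bear on what was counted, since nuclear RNA includes introns. Whether reads in introns were counted is not given in the sources used here. In GENCODE M21 on GRCm38, Nrg1 covers chromosome 8 from 31814551 to 32884029 on the minus strand, and Erbb4 covers chromosome 1 from 68032186 to 69108059 on the minus strand. Egfr lies on chromosome 11 from 16752203 to 16918158 on the plus strand and Nrg4 on chromosome 9 from 55220222 to 55326844 on the minus strand. Erbb3 lies on chromosome 10 from 128567523 to 128589652 and Btc on chromosome 5 from 91357261 to 91402994, both on the minus strand. As the spans run from 22130 bases (Erbb3) to 1075874 bases (Erbb4), levels were compared between samples and not between genes. Fbxo22, on the other strand, overlaps Nrg4 and had 1399 UMIs in all nuclei, and whether the counting used strand is not given in the sources used here.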

How the data were processed

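Nuclei from 3 WT and 3 HNKO livers were sequenced with 10x Genomics 3′ chemistry. Per the labels and methods, the authors made FASTQ files with Cell Ranger 5.0.1, mapped reads with Alevin to GRCm38 and GENCODE M25, and kept hashtag singlets in Seurat. The deposited matrix holds estimated counts, in which 10.1% of nonzero values are not whole, and the deposited hashtag table holds whole-number counts. The authors' SCTransform-scaled matrix was not used. No further doublet caller was run. Mice were taken from the deposited hashtag assignment and cell types from the deposited cluster names, with 21 names joined into 6 types. No nucleus barcode occurred more than 1 time.

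Counts were summed per mouse and type, with at least 10 nuclei, and rounded. Genotypes were compared with edgeR 4.0.16 (filterByExpr, TMM, quasi-likelihood, Benjamini-Hochberg over all genes). The smallest depth per hepatocyte sum was 3524497 UMIs. In simulated counts for hepatocytes the test recovered 81.5% of 200 genes changed by a log2 of 2. The share was 82.5% for endothelial, 71.5% for stellate and 63% for CD45+ cells. These shares hold for the simulated counts only. In the measured hepatocyte counts edgeR called 0 genes, with a smallest adjusted p of 0.82. Whether the test reaches these shares with the spread among the measured mice was not tested. Each mouse is 1 sample. Members and lists were chosen with earlier results of these data known. All members are named, and of each pathway list up to 2 genes with the largest hepatocyte difference among those whose groups did not overlap. A gene that this rule named is not reported here. Alternatives were DESeq2 1.42.0, RLE scaling, no filter, leaving out each mouse, a hashtag filter and a minimum of 20 nuclei. Descriptions used Python with numpy, pandas and scipy.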

Additional observations from a re-analysis of the deposited data

How the results depend on the processing

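Of the genotype differences of single members other than Nrg1, which was given no p, none crossed the adjusted p of 0.05 under any alternative. Hepatocyte Nrg1, which was chosen for its genotype difference and is only described, had a log2 fold change of 2.74 in DESeq2. Without HNKO mouse 2 it was 3.24. Counts of all genes called, 0 in each type by edgeR, moved as follows. DESeq2 called 21 genes in hepatocytes, 1 in endothelial, 1 in stellate and 4 in CD45+ cells, and edgeR without the filter on low counts called 35, 16, 29 and 23. Leaving out 1 mouse gave 0 to 32 genes in hepatocytes (32 without HNKO mouse 2), 0 in endothelial cells, 0 to 51 in stellate cells (51 without HNKO mouse 2, 1 without WT mouse 2) and 0 to 7 in CD45+ cells (7 without HNKO mouse 2, 1 without HNKO mouse 3). Directions of members that were not called turned when 1 mouse was left out. In hepatocytes the log2 fold change then ran from -0.93 to 0.18 for Nrg4, -0.95 to 0.26 for Egfr and -0.63 to 0.042 for Erbb3. In endothelial cells it ran from -0.39 to 0.24 for Egfr and -0.21 to 0.43 for Erbb4. In stellate cells it ran from -0.10 to 0.93 for Egfr and -0.46 to 0.48 for Erbb4. In CD45+ cells it ran from -0.13 to 7.202 for Nrg4, -0.97 to 1.60 for Egfr and -0.30 to 0.094 for Erbb4. Endothelial Nrg1 ran from -2.71 to 0.93. Without the filter, Egfr turned to 0.12 in endothelial and 0.0099 in CD45+ cells and Erbb4 to 0.17 in CD45+ cells. With the hashtag filter, endothelial Egfr turned to 0.61 and Nrg4 to -0.21. The causes were not tested. Mean levels per cell type moved by less than 1 SD with a minimum of 20 nuclei or, in hepatocytes, with the hashtag filter. The SDs were large, however, and the minimum of 20 nuclei, which leaves out cholangiocytes of HNKO mouse 2, brought cholangiocyte Erbb4 from 3020 to 930.3 CPM, below the 1603 CPM of hepatocytes. In CD45+ cells it brought Nrg1 from 93.7 to 56.9 CPM and Erbb3 from 51.1 to 28.9 CPM. The mean Nrg1 level of HNKO hepatocytes, 164 CPM, was 114 CPM in nuclei without a cholangiocyte marker UMI, an alternative chosen after seeing the data. Depth limits Erbb2, Areg and Hbegf.

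No paired analysis was possible because the mice carry no replicate numbers that the groups share, and each pool holds both genotypes. The pools could not be analysed alone, since nucleus names do not tell them apart. Kupffer genotypes could not be compared, as WT mice had 4 to 6 Kupffer nuclei, and the hashtag filter left too few nuclei for stellate and CD45+ cells.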
